A study of Mus musculus with 16 samples.

Results

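The genes described here are those of the insulin-like growth factor (IGF) binding proteins Igfbp2, Igfbp3, Igfbp4, Igfbp5, Igfbp6 and Igfbp7, of the ligand Igf1 and of its receptor Igf1r. They were taken by gene symbol from the polyA read and FPKM tables, and all 8 were found among the 43629 genes of the read tables and the 24544 genes of the FPKM table. IGFs are growth factors that circulate and diffuse through tissue bound to IGF-binding proteins (IGFBPs). A bound IGF does not reach its receptor until the IGFBP releases it or is cut by a protease, so an IGFBP can restrain IGF signalling or hold a local store of ligand. The receptor encoded by Igf1r is a tyrosine kinase that signals through insulin receptor substrates to the PI3K-AKT and MAPK pathways. In fetal liver, where stromal cells lie beside expanding hematopoietic stem and progenitor cells (HSPC), IGF2 is the main fetal IGF, and several IGFBPs are known stromal products.

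PolyA RNA was measured in AFT024 and BFC012, stromal cell lines from the fetal liver of C57BL/6 mice at 14.5 dpc (days post coitum). The exosomes of each line, which are small secreted membrane vesicles, were measured alongside. The labels call AFT024 supportive of HSPC and BFC012 non-supportive, and neither line carries an added allele or treatment in the labels. Each kind is represented by 1 line, so a difference between AFT024 and BFC012 cannot be told apart from any other difference between these lines. The labels give 2 samples for each of the 4 polyA groups, but the deposited values are merged, 1 for each group. Exosome RNA was pooled over extractions before it was divided into technical replicates. No difference below has a replicate check, no p-value was computed, and the intervals given cover counting error only.

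The read tables summed to 9038471 reads in AFT024 exosomes, 16344350 in BFC012 exosomes, 39385534 in AFT024 cells and 35874383 in BFC012 cells. Each value is as precise as the gene's own reads allow, so the reads are given with each. Of 8 stromal markers, 7 or 8 had reads in every group, with a summed level from 1118 to 7733 RPM (reads scaled to the library total), while Thy1 had at most 1 read and Col1a2 had 1717 reads in AFT024 cells but 12 in BFC012 cells. Hepatoblast markers summed to at most 1.14 RPM and endothelial markers to at most 1.04 RPM. The leukocyte marker Ptprc had at most 2 reads, and nearly all of the haematopoietic marker signal came from Cd34. The 4 mesothelial markers summed to 94.0 RPM in AFT024 cells and 450.3 RPM in BFC012 cells. Of these, Upk3b had 5 and 13308 reads, Wt1 0 and 1226, Lrrn4 0 and 155, and Msln 3699 and 1467. The 3 epithelial markers summed to 0.356 and 23.6 RPM. In the same order, Cdh1 had 3 and 756 reads, Krt19 7 and 92, and Epcam 4 and 0, so Epcam did not follow the sum.

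The start regions of 5 binding protein genes are shown first, because these genes differed most between the lines as cells and divide into a BFC012 side and an AFT024 side. Each sequence is the 250 bases before the RefSeq start site on the gene's own strand in GRCm38.p6, which is mm10. Capitals mark 3 short motifs searched on both strands: the TATA box TATAAA, the GC box GGGCGG and the CCAAT box CCAAT, where a match on the opposite strand appears as its reverse complement. The regions of Igfbp2, Igfbp4 and Igfbp5, which had more reads in BFC012 cells, read:
Igfbp2 (chr1:72824230-72824479, plus strand): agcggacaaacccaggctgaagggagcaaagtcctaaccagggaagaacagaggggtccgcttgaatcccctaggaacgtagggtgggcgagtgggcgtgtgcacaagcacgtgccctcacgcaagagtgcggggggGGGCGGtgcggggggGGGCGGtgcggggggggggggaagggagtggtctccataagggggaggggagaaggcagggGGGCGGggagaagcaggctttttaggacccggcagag
Igfbp4 (chr11:99040994-99041243, plus strand): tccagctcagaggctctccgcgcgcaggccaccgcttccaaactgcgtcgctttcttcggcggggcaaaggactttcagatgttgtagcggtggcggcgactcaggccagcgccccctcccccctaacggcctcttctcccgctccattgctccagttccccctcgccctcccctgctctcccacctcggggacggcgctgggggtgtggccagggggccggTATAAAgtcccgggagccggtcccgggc
Igfbp5 (chr1:72874866-72875115, minus strand): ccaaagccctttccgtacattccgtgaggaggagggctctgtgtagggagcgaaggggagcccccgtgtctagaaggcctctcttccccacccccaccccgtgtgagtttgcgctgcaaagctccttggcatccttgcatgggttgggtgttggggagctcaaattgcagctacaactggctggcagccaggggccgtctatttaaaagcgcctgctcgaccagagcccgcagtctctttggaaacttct
The regions of Igfbp6 and Igfbp7, which had more reads in AFT024 cells, read:
Igfbp6 (chr15:102143936-102144185, plus strand): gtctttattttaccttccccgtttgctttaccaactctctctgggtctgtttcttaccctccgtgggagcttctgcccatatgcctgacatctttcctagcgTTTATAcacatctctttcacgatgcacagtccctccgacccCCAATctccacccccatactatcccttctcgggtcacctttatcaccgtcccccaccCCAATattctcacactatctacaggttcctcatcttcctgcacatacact
Igfbp7 (chr5:77408046-77408295, minus strand): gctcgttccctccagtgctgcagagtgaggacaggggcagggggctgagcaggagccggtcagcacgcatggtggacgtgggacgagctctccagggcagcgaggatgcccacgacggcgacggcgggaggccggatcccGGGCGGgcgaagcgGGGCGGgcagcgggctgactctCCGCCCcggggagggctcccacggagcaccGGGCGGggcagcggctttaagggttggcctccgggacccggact

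Neither side shared a motif across its genes. Igfbp2 held 3 GC boxes and Igfbp7 held 4, Igfbp4 held a TATA box 28 to 23 bases before the start, Igfbp6 held a TATA box on the opposite strand and 2 CCAAT boxes, and Igfbp5 held none of these letters. Among 32536 promoters of the same length, 12.3% held TATAAA, 33.0% GGGCGG and 33.8% CCAAT. The 5 regions held 14 (Igfbp2), 22 (Igfbp4), 10 (Igfbp5), 7 (Igfbp6) and 26 (Igfbp7) CpG pairs, against a median of 6 over all promoters. RefSeq lists 2 start sites for Igfbp2, of which 1 is shown, and a match to a motif is a description of letters, not of a bound site.

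In the genome, Igfbp2 (chromosome 1, 72824503 to 72852474, plus strand) and Igfbp5 (chromosome 1, 72857932 to 72874884, minus strand) are neighbours that end towards each other, with 5457 bases between them. Igfbp3 (chromosome 11, 7206086 to 7213923, minus strand) lies 3539 bases from Igfbp1, the hepatocyte IGFBP gene, which had 0 reads in all 4 groups. A floor of 3 reads, the limit taken for a count of 0, is 0.332 RPM in AFT024 exosomes and 0.0762 RPM in AFT024 cells, and the upper ends of the exact Poisson intervals are 0.408 and 0.0937 RPM. Igfbp4 lies elsewhere on chromosome 11 (99041244 to 99054392), Igfbp6 on chromosome 15 (102144362 to 102149511), Igfbp7 on chromosome 5 (77349240 to 77408041), Igf1 on chromosome 10 (87858265 to 87937042) and Igf1r on chromosome 7 (67952827 to 68233668), all in mm10. The end of Igfbp7 overlaps Polr2b on the opposite strand by 85 bases, and 7085 bases of Igfbp7 overlap the antisense gene Gm34648. Polr2b had 8820 reads in AFT024 cells, 8660 in BFC012 cells, 300 in AFT024 exosomes and 1069 in BFC012 exosomes, and no count was at hand for Gm34648. Igf1 overlaps the antisense gene Igf1os by 5117 bases, but Igf1os had at most 1 read in any group. The labels name a library kit but no strand-aware counting, so reads from such overlaps cannot be told apart.

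The make-up of the IGFBP transcripts differed between the lines and between cells and exosomes, and the leading gene changed between cells and exosomes in AFT024 only. Per length, as reads per kilobase of exon, Igfbp7 made up 62.9% of the summed level of the 6 IGFBP genes in AFT024 cells and Igfbp6 33.8%, while Igfbp4 made up 2.86%. In BFC012 cells Igfbp4 made up 69.9%, Igfbp2 16.9%, Igfbp7 6.65% and Igfbp6 3.08%. AFT024 exosomes were led by Igfbp6 at 81.2%, with Igfbp4 at 9.84% and Igfbp7 at 8.51%. BFC012 exosomes kept Igfbp4 in the lead at 65.5%, followed by Igfbp6 at 16.0% and Igfbp2 at 8.37%. In the bulk RNA of the cell groups, fewer cells of a type and less RNA per cell cannot be told apart. The shares rest on 12733 reads in AFT024 cells, 10479 in BFC012 cells, 1140 in AFT024 exosomes and 613 in BFC012 exosomes. In deposited FPKM the leading gene was the same in each group, at 62.4% (AFT024 cells), 80.9% (BFC012 cells), 60.3% (AFT024 exosomes) and 70.5% (BFC012 exosomes), but Igfbp4 made up 31.9% in AFT024 exosomes.

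**Figure D1:**
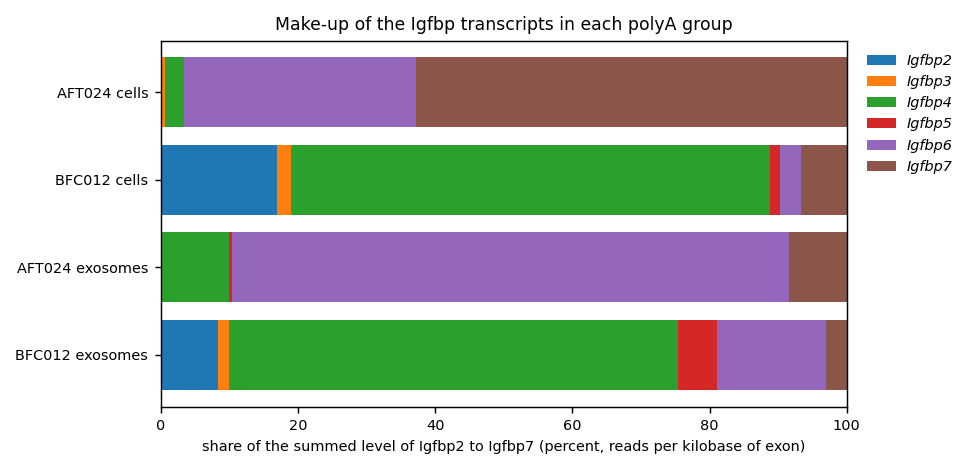
Share of each IGFBP gene (percent, horizontal axis) in the summed per-length level of Igfbp2 to Igfbp7, with 1 bar for each polyA group. Igfbp7 and Igfbp6 fill most of the AFT024 bars and Igfbp4 most of the BFC012 bars, and the Igfbp7 share is 62.9% in AFT024 cells and 8.51% in AFT024 exosomes.

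Igfbp2, which encodes a binding protein abundant in fetal tissues and added to some stem cell culture media, was a BFC012 transcript. It stood at 24.5 FPKM in BFC012 cells (895 reads), 1.15 FPKM in BFC012 exosomes (26 reads), 0.0262 FPKM in AFT024 cells (1 read) and 0 FPKM in AFT024 exosomes (0 reads). Both BFC012 groups lay above both AFT024 groups.

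Igfbp3, the gene of the main IGF carrier of serum, was low in all groups. Its level was 1.48 FPKM in AFT024 cells (159 reads) and 1.85 FPKM in BFC012 cells (182 reads), and their counting intervals in RPM overlapped. The exosomes held 2 reads (AFT024, 0.0422 FPKM) and 8 reads (BFC012, 0.126 FPKM), again with overlapping intervals.

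Igfbp4, whose product inhibits IGF action until it is cut by the protease PAPP-A, was read in every group and was highest in BFC012 cells. Its level was 126.6 FPKM in BFC012 cells (8828 reads), 16.3 FPKM in AFT024 cells (1256 reads), 19.2 FPKM in AFT024 exosomes (338 reads) and 6.86 FPKM in BFC012 exosomes (486 reads). In RPM the BFC012 cells stood at 246.1 and the other groups between 29.7 and 37.4, with neighbouring intervals overlapping among those 3. FPKM and reads thus gave different spacings for Igfbp4 in exosomes: its FPKM per RPM was 0.231 in BFC012 exosomes and 0.510 to 0.515 in the other 3 groups, where the median gene had 0.242 in BFC012 exosomes, 0.188 in AFT024 exosomes and 0.345 to 0.346 in the cells.

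Igfbp5, the gene of a binding protein that attaches to extracellular matrix, stayed just below the 1 FPKM used as a filter. Its highest FPKM was 0.949 in BFC012 cells (246 reads), and Igfbp3, the nearest gene above the filter, reached 1.85. AFT024 cells had 7 reads (0.0354 FPKM), AFT024 exosomes 18 (0.145 FPKM) and BFC012 exosomes 57 (0.438 FPKM). Unlike its neighbour Igfbp2, Igfbp5 had reads in AFT024 exosomes. In RPM the order was BFC012 cells at 6.86 (6.03 to 7.77), BFC012 exosomes at 3.49 (2.64 to 4.52), AFT024 exosomes at 1.99 (1.18 to 3.15) and AFT024 cells at 0.178 (0.0715 to 0.366), and only the intervals of the exosomes overlapped.

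Igfbp6, whose product prefers IGF2 over IGF1, was an AFT024 transcript in cells and exosomes alike. It stood at 85.3 FPKM in AFT024 cells (3740 reads), 36.3 FPKM in AFT024 exosomes (702 reads), 2.49 FPKM in BFC012 cells (98 reads) and 1.15 FPKM in BFC012 exosomes (30 reads). Both AFT024 groups lay above both BFC012 groups.

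Igfbp7, a secreted protein gene related to the IGFBPs whose product binds IGFs with low affinity, had the highest FPKM of the 8 genes in any group, 170.8 in AFT024 cells (7570 reads). AFT024 exosomes had 4.51 FPKM (80 reads). Igfbp7 was listed at 0 FPKM in both BFC012 groups, although BFC012 cells had 230 reads and BFC012 exosomes 6. Reads were therefore used for Igfbp7. Whether some of the few BFC012 reads come from the overlapping genes Polr2b or Gm34648 was not tested, and this limit holds for every Igfbp7 ratio and share with BFC012. The intervals of AFT024 exosomes (8.85 RPM, 7.02 to 11.02) and BFC012 cells (6.41 RPM, 5.61 to 7.30) overlapped.

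The ligand gene Igf1 was a low transcript in both lines, higher in cells. It stood at 5.18 FPKM in AFT024 cells (410 reads), 2.08 FPKM in BFC012 cells (153 reads), 0.650 FPKM in AFT024 exosomes (25 reads) and 0.353 FPKM in BFC012 exosomes (22 reads). The receptor gene Igf1r had the opposite order of lines, with 10.5 FPKM in BFC012 cells (2018 reads), 5.39 FPKM in AFT024 cells (1134 reads), 0.995 FPKM in BFC012 exosomes (122 reads) and 0.415 FPKM in AFT024 exosomes (38 reads). For Igf1r all 4 intervals in RPM lay apart, whereas for Igf1 those of BFC012 cells and AFT024 exosomes overlapped, as did those of the exosomes.

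**Figure D2:**
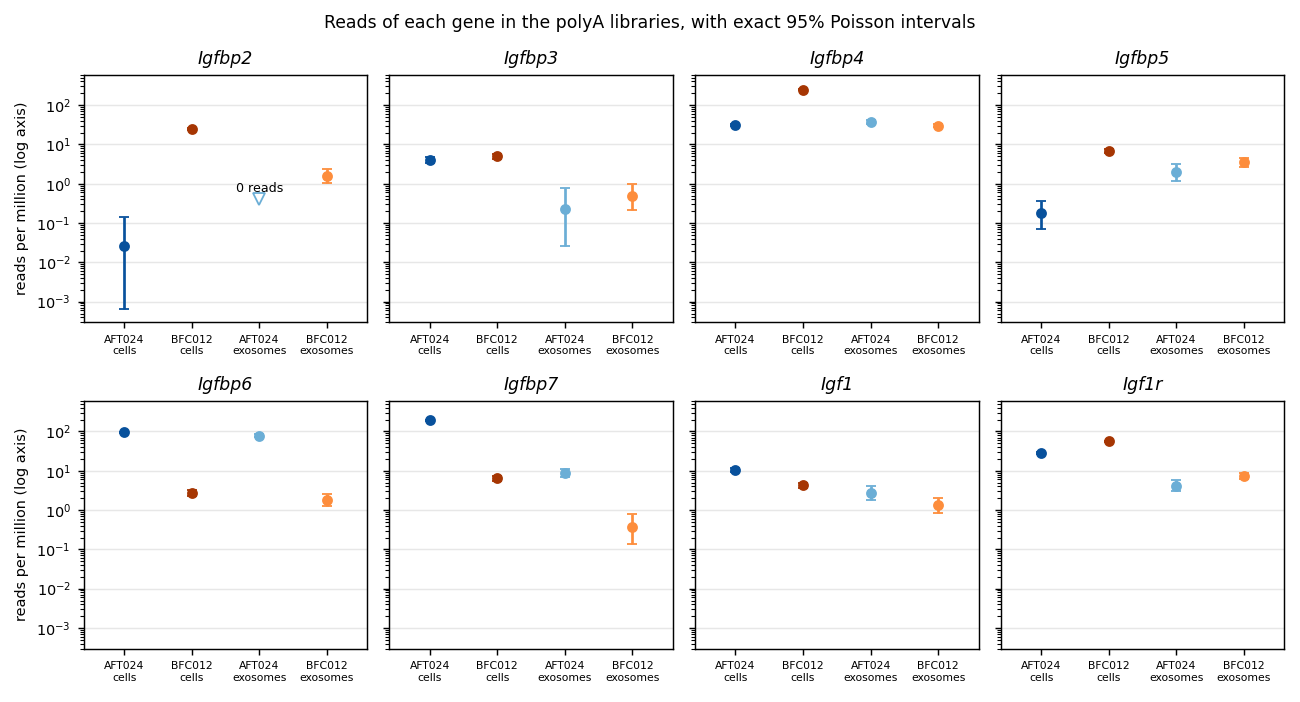
RPM (vertical log axis) of each of the 8 genes in the 4 polyA groups, with points for the merged value and bars for exact 95% Poisson intervals, which cover counting error only. Igfbp2, Igfbp4 and Igfbp5 peak in BFC012 cells and Igfbp6 and Igfbp7 in AFT024 cells. The open triangle is the upper limit for Igfbp2 in AFT024 exosomes, which had 0 reads.

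Between the cells, the question is which IGFBPs a line that supports HSPC transcribes and a line that does not. Ratios below divide the whole reads of the groups after median-of-ratios scaling over the 4 polyA groups, with exact Clopper-Pearson 95% intervals in brackets, and a gene is counted as higher or lower at a ratio of 2-fold or more. AFT024 cells had more Igfbp6 by a ratio of 35.3 (28.9 to 43.6) and more Igfbp7 by 30.4 (26.7 to 34.8). BFC012 cells had more Igfbp4 by 7.60-fold (7.17 to 8.07) and more Igfbp5 by 38.0-fold (18.2 to 95.6). With 1 read against 895, the AFT024 to BFC012 ratio of Igfbp2 was 0.00103 (2.61e-05 to 0.00577), the fifth lowest of 12475 genes.

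Igf1 was higher in AFT024 cells by a ratio of 2.48 (2.05 to 3.003), while Igf1r at 0.520 (0.483 to 0.559) and Igfbp3 at 0.808 (0.649 to 1.005) did not reach 2-fold. Of the 7 genes that passed the 1 FPKM filter, 3 were higher (Igfbp6, Igfbp7, Igf1) and 2 lower (Igfbp2, Igfbp4) in AFT024 cells. Over all 12475 genes compared, 10.2% were higher and 8.71% lower, 18.9% in all. The median log2 ratio was -0.31 over the 7 genes and -0.02 over all genes. Igfbp5, also 2-fold lower, is not in the count because it failed the filter. The mesothelial and epithelial marker sums given above were also higher in BFC012 cells, and the summed stromal markers higher in AFT024 cells (7733 against 3928 RPM); their part in these ratios was not tested. In the authors' deposited table the log2 ratios of Igfbp2, Igfbp4, Igfbp6 and Igfbp7 were -9.86, -2.87, 5.20 and 4.98. They come from the same reads as the ratios above under another scaling, so they are not a separate check.

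Among the exosomes, the line difference of Igfbp6 and Igfbp7 was of like size to that in the cells, and that of Igfbp4 was not. Igfbp6 had 702 reads in AFT024 exosomes and 30 in BFC012 exosomes, a ratio of 42.3 (29.4 to 63.2), and Igfbp7 had 80 and 6, a ratio of 24.1 (10.6 to 67.7). Igfbp4 had 338 and 486 reads, a ratio of 1.26 (1.09 to 1.45), although its deposited FPKM was 19.2 against 6.86. Igfbp2 had 0 against 26 reads, at least 4.79-fold lower in AFT024 exosomes when the count of 0 is set to a floor of 3 reads, and at least 3.63-fold by the exact interval.

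The remaining exosome ratios rest on few reads. Igf1 stood at 2.06 (1.11 to 3.83), Igf1r at 0.564 (0.381 to 0.817) and Igfbp5 at 0.571 (0.317 to 0.985). Igfbp3 stood at 0.452 (0.0468 to 2.27) from 2 and 8 reads, so no difference in Igfbp3 was detectable at this depth. Of 7 genes, 3 were past 2-fold higher (Igfbp6, Igfbp7, Igf1) and 2 lower (Igfbp2, Igfbp3) in AFT024 exosomes. Here Igfbp3 is counted by its ratio alone, though its interval includes 1, and Igfbp2 by its floor of 3 reads. Over 11719 genes 16.0% were higher and 13.3% lower, 29.3% in all, with a median log2 ratio of -0.02 against 0.33 for the 7 genes. Over the same 11719 genes, reads gave 1873 higher and 1564 lower, and deposited FPKM plus 1, which has no median-of-ratios scaling, gave 842 and 1866. On that scale 3 of the 7 genes were higher (Igfbp6, Igfbp7, Igfbp4) and 1 lower (Igfbp2), so the higher genes were not the same 3. Igfbp4 had a log2 ratio of 1.36 there and 0.33 in reads, and Igf1 had 0.29 there and 1.04 in reads.

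**Figure D3:**
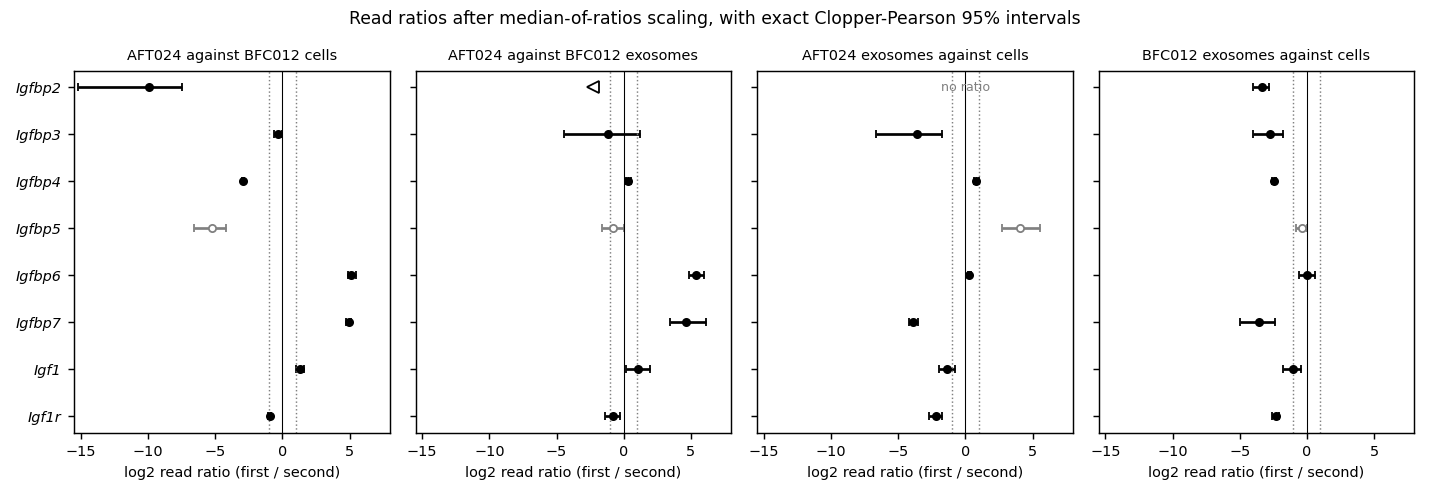
Log2 read ratio (horizontal axis) of each gene in the 4 comparisons, with exact Clopper-Pearson 95% intervals and dotted lines at 2-fold. Grey open points are Igfbp5, below the 1 FPKM filter, the open triangle is the bound for Igfbp2 with 0 reads in AFT024 exosomes, and Igfbp4 and Igfbp5 lie on opposite sides of 0 in the exosome-to-cell panels. The Igfbp5 interval in BFC012 includes 0.

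The comparison of exosomes with their own cells asks which transcripts are relatively enriched or depleted in the vesicles. The ratios are relative to the median gene of the libraries: scaling to total reads instead shifts all log2 ratios by -0.58 in AFT024 and -0.60 in BFC012. In AFT024, Igfbp7 had 80 reads in exosomes and 7570 in cells, a ratio of 0.0686 (0.0543 to 0.0855), and Igfbp3 had 2 and 159 reads, a ratio of 0.0817 (0.00980 to 0.300). Igf1r stood at 0.218 (0.153 to 0.300) and Igf1 at 0.396 (0.253 to 0.593). The 4 transcripts were thus lower in AFT024 exosomes than in AFT024 cells, relative to the median gene.

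The other AFT024 transcripts were not lower past 2-fold in reads. Igfbp4 stood at 1.75 (1.55 to 1.97), Igfbp6 at 1.22 (1.12 to 1.32), and Igfbp5, from 18 and 7 reads, at 16.7 (6.65 to 47.3). Igfbp6 had a log2 ratio of 0.29 by this scaling, -0.29 by total reads and -1.21 with deposited FPKM plus 1, which is lower past 2-fold, so its direction depends on the measure. No ratio was formed for Igfbp2, with 0 and 1 read. In AFT024, 0 of 6 genes past the filter were higher and 4 lower, where 24.3% of 12274 genes were higher and 22.2% lower, 46.5% in all. The median log2 ratio was -1.77 over the 6 genes and -0.01 over all.

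In BFC012, exosomes held less of 6 of the 7 genes past the filter than the cells. Igfbp4 had 486 reads in exosomes and 8828 in cells, a ratio of 0.183 (0.166 to 0.200), and Igfbp2 had 26 and 895, a ratio of 0.0964 (0.0626 to 0.142). Igfbp7 stood at 0.0865 (0.0314 to 0.191), Igfbp3 at 0.146 (0.0620 to 0.293), Igf1r at 0.201 (0.166 to 0.241) and Igf1 at 0.477 (0.290 to 0.749). Igfbp6, from 30 and 98 reads, stood at 1.02 (0.651 to 1.54), an interval that includes 1, and at a log2 ratio of -0.57 by total reads and -1.05 with FPKM plus 0.1. Igfbp5, which failed the filter, stood at 0.769 (0.566 to 1.03).

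Over 12232 genes in BFC012, 24.8% were higher in exosomes and 23.5% lower, 48.3% in all, and 0 of the 7 genes were higher. The median log2 ratio was -2.45 over the 7 genes and 0.00 over all. Scaled to total reads, all genes split 1920 higher to 4615 lower in AFT024 instead of 2983 to 2719, and 1834 to 4721 in BFC012 instead of 3029 to 2877, while the counts of lower genes among the IGF genes were also 4 and 6. With FPKM plus 1, without that scaling, the same genes split 897 to 6813 in AFT024 and 972 to 5545 in BFC012. The comparisons share groups with one another, so their values are given side by side and are not independent.

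**Figure D4:**
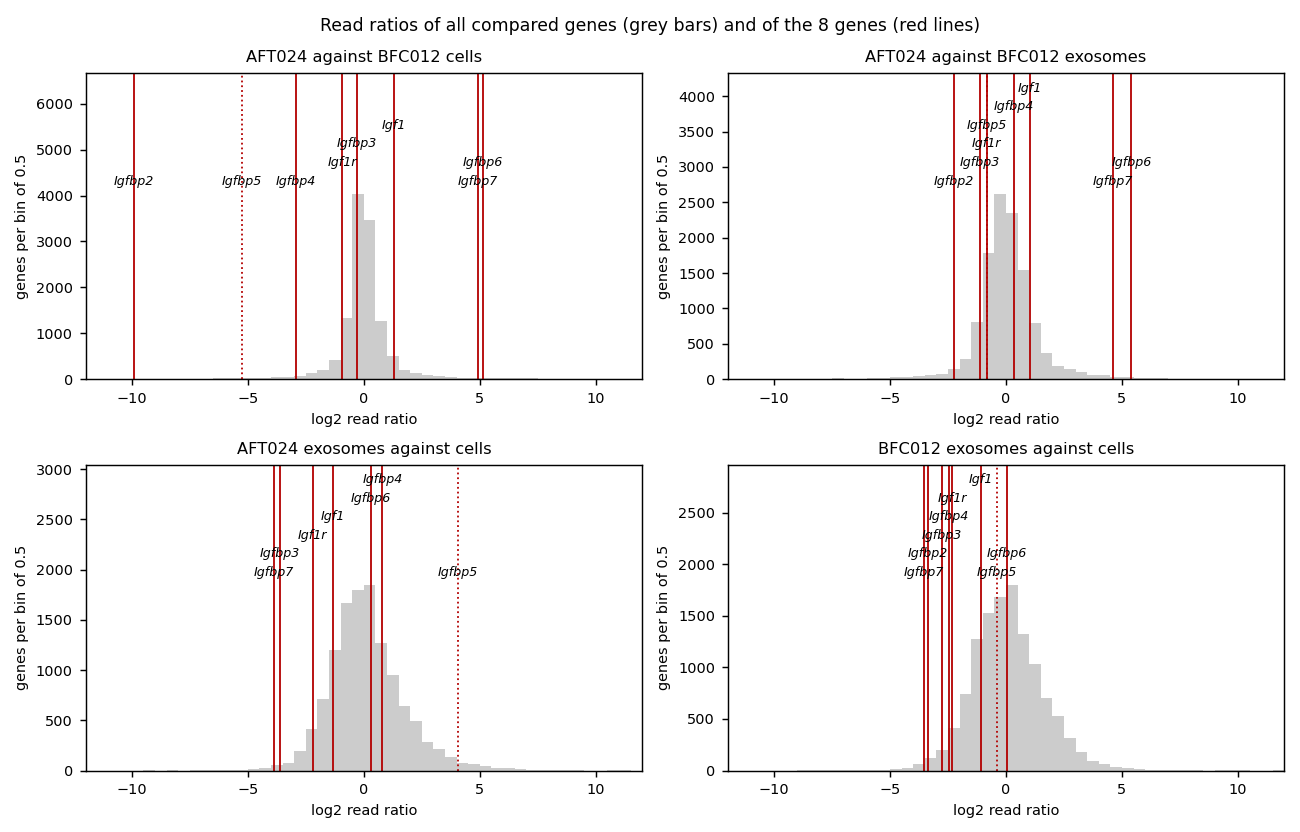
Number of genes (vertical axis) by log2 read ratio in bins of 0.5 (horizontal axis) over all genes past the filter, with a red line for each of the 8 genes that has a ratio (dotted for Igfbp5, below the filter, and at its bound for Igfbp2 between the exosomes). In cells, Igfbp2, Igfbp4 and Igfbp5 lie in the left tail and Igfbp6 and Igfbp7 in the right tail. In BFC012 exosomes against cells most lines lie left of the centre.

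Igfbp4 and Igfbp5 differed between the lines in how exosomes related to cells. The exosome-to-cell log2 ratio of Igfbp4 was 0.80 in AFT024 and -2.45 in BFC012, a difference of 3.26 (counting SE 0.11, interval 3.04 to 3.48). That of Igfbp5 was 4.06 and -0.38, a difference of 4.44 (counting SE 0.68, interval 3.11 to 5.77), from 18 and 7 reads in AFT024. The intervals for Igfbp3 (-0.84, -3.09 to 1.42), Igfbp6 (0.26, -0.34 to 0.86), Igfbp7 (-0.33, -1.55 to 0.88), Igf1 (-0.27, -1.14 to 0.60) and Igf1r (0.12, -0.42 to 0.65) all included 0. The Igfbp4 levels of the lines stood 7.60-fold apart in cells, with BFC012 higher, and at a ratio of 1.26 in exosomes, with AFT024 higher. With 1 value per group no difference between the lines was tested.

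The rest of the ligand and receptor system is given from a list of 7 genes, of which 3 were measured above the filter. Igf2, the fetal ligand gene, had 700 reads in BFC012 cells (4.49 FPKM), 7 in AFT024 cells, 6 in BFC012 exosomes and 0 in AFT024 exosomes, and its ratio between AFT024 and BFC012 cells was 0.00924 (0.00370 to 0.0192). Igf2 and Igfbp2 thus both had their reads almost entirely in BFC012 cells. Igf2r, a scavenger receptor for IGF2, had 5208 reads in cells of AFT024 and 4269 in cells of BFC012. With median-of-ratios scaling it did not pass 2-fold in any of the 4 comparisons. By total reads it was lower past 2-fold in AFT024 exosomes than in AFT024 cells.

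Insr, the insulin receptor gene, related to Igf1r, went the other way from Igf1r in exosomes. It had 681 reads in AFT024 exosomes and 1434 in AFT024 cells, a ratio of 3.08 (2.81 to 3.38). In BFC012 it had 1491 and 1643 reads, a ratio of 3.01 (2.80 to 3.23). Igf1r stood at 0.218 and 0.201 in the same comparisons. By total reads Insr passed 2-fold in AFT024 and not in BFC012. Igfals, the gene of the serum carrier complex subunit, had at most 4 reads in any group.

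Of 8 genes of IGFBP-cutting proteases and their inhibitors, 5 passed the filter, and between the cells 3 were higher in AFT024 and 1 lower. Of all genes compared between the cells, 10.2% were higher and 8.71% lower. Adam12, a metalloprotease gene, had 2369 reads in AFT024 and 99 in BFC012, a ratio of 22.1 (18.1 to 27.3). The serine protease gene Htra1 had 3323 and 625 reads, a ratio of 4.92 (4.51 to 5.36). Pappa, whose product cuts IGFBP4, had 943 and 336 reads, a ratio of 2.59 (2.29 to 2.95), which is the reverse of the order of Igfbp4.

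Pappa2, whose product cuts IGFBP5, had 6 reads in AFT024 and 497 in BFC012 as cells, a ratio of 0.0112 (0.00408 to 0.0245), in the same order as Igfbp5. Adam9 stood at 0.854 (0.829 to 0.879) between the cells. Stc2, the gene of a PAPP-A inhibitor, did not pass the filter, with 35 and 81 reads. Between the exosomes 2 of the 5 genes were higher in AFT024 (Htra1, Adam12) and 1 lower (Pappa2), beside 16.0% and 13.3% of all genes. Relative to their cells, AFT024 exosomes had 4 of the 5 lower and 1 higher, and BFC012 exosomes 3 lower and 1 higher, beside 22.2% and 23.5% of all genes lower and 24.3% and 24.8% higher. Adam9, at 0.282 (0.253 to 0.313) and 0.180 (0.164 to 0.197), and Htra1, at 0.141 (0.110 to 0.178) and 0.0425 (0.0183 to 0.0842), were lower in both.

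Among 11 other genes with an IGFBP-type domain, 8 passed the filter. In AFT024 cells 2 were higher than in BFC012 cells and 1 lower, beside 10.2% and 8.71% of all genes. Nov, a matricellular protein gene, had 341 and 31 reads, a ratio of 10.2 (7.03 to 15.2), and Wisp2 had 41 and 304, a ratio of 0.125 (0.0877 to 0.173). Between the exosomes 2 were higher in AFT024 and 2 lower, beside 16.0% and 13.3% of all genes, with Wisp2 at 0.0445 (0.00905 to 0.133). Against their cells, AFT024 exosomes had 5 of the 8 lower and 1 higher, and BFC012 exosomes 4 lower and 2 higher. In these comparisons 22.2% and 23.5% of all genes were lower and 24.3% and 24.8% higher. By total reads the lower counts were 7 and 5. Cyr61 and Ctgf, which encode secreted matrix-binding growth regulators, stood at 0.0652 (0.0577 to 0.0733) and 0.0701 (0.0585 to 0.0833) in AFT024, close to the ratio of Igfbp7, and at 0.125 (0.116 to 0.134) and 0.117 (0.107 to 0.127) in BFC012. Htra3, a serine protease gene, was higher in the exosomes of AFT024 at 5.22 (3.99 to 6.82) and of BFC012 at 8.43 (6.74 to 10.6). Crim1 stood at 0.280 (0.245 to 0.318) and 0.441 (0.400 to 0.486).

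Downstream of the receptor, 34 of 35 listed signalling genes passed the filter, of which 2 were higher in AFT024 than in BFC012 cells and 1 lower, beside 10.2% and 8.71% of all genes. The median log2 ratio was -0.09. Irs1, an insulin receptor substrate gene that links both receptors to PI3K, had 4284 and 1591 reads, a ratio of 2.49 (2.35 to 2.64), and the adaptor gene Grb14 had 368 and 116, a ratio of 2.93 (2.37 to 3.65). The 1 lower gene was the other listed substrate gene, Irs2, with 909 and 1977 reads, a ratio of 0.425 (0.3925 to 0.460). Between the exosomes 1 was higher in AFT024 (Irs1, 2.09, 2.04 to 2.14) and 4 lower. Among the lower ones were Irs2, at 0.379 (0.3385 to 0.423), and Foxo3, a transcription factor gene held in check by AKT, at 0.316 (0.297 to 0.337). Of all genes compared between the exosomes, 16.0% were higher and 13.3% lower.

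Against their cells, the vesicles of AFT024 held 9 of the 34 signalling genes at a higher and 4 at a lower level, and those of BFC012 held 11 at a higher and 3 at a lower level, with medians of 0.28 and 0.37. Of all genes 24.3% and 24.8% were higher and 22.2% and 23.5% lower, so the share of higher genes in AFT024 is near that of all genes. Scaled to total reads, AFT024 had 7 of them higher and 10 lower and BFC012 had 8 and 5, with medians of -0.30 and -0.22, so the direction of the list depends on the scaling. Irs1 had 14112 reads in AFT024 exosomes and 12216 in BFC012 exosomes, ratios to the cells of 21.4 (20.7 to 22.1) and 25.5 (24.2 to 26.9). Ptpn11, the gene of the SHP2 phosphatase, had 26613 and 58620 reads, ratios of 9.31 (9.14 to 9.49) and 10.97 (10.8 to 11.2). Foxo3 stood at 9.60 (8.76 to 10.5) and 20.01 (18.8 to 21.4), Foxo1 at 4.47 (4.15 to 4.81) and 8.79 (8.12 to 9.52), and Tsc1, an mTOR inhibitor gene, at 8.57 (8.12 to 9.04) and 7.44 (7.09 to 7.81). Igf1r, which heads this pathway, was on the other side of 1 in both lines.

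The 3 genes of the IGF2 mRNA-binding proteins, which bind Igf2 transcripts among others, did not pass 2-fold between the cells. Igf2bp1 had 3061 reads in AFT024 exosomes and 1709 in BFC012 exosomes, a ratio of 3.24 (3.05 to 3.44), and was higher in exosomes than in cells at 5.29 (5.04 to 5.55) in AFT024 and 2.20 (2.07 to 2.34) in BFC012, where it did not pass 2-fold by total reads. Igf2bp2 was lower in AFT024 exosomes than in BFC012 exosomes at 0.397 (0.362 to 0.434). It also stood at 0.4995 (0.458 to 0.544) in AFT024 exosomes against cells, just past 2-fold. With median-of-ratios scaling Igf2bp3 did not pass 2-fold in any of the 4 comparisons, from 0.594 (AFT024 exosomes against cells) to 1.46 (between the cells). By total reads both Igf2bp2 and Igf2bp3 were lower past 2-fold in AFT024 exosomes than in AFT024 cells.

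The genes most like each IGF gene that reached 10 FPKM were taken as those at the smallest Euclidean distance in centred log2 scaled reads, over 4 points and among 7287 protein-coding genes. For Igfbp2 they were Tspan8 (distance 0.54), Gpm6a (1.18) and Cdh3 (1.33), and Tspan8 had 0 reads in AFT024 exosomes, 33 in BFC012 exosomes, 2 in AFT024 cells and 737 in BFC012 cells. For Igfbp4 they were Cd59b (0.68), Cystm1 (0.75) and 3110039M20Rik (0.86), all at a larger distance than the nearest genes of Igfbp6 and Igfbp7. For Igfbp6 they were Emx2 (0.35), Slco2a1 (0.50) and BC028528 (0.58). Igfbp7 had Efemp1 (0.40) and Fbln1 (1.09), both genes of fibulin-family matrix proteins, and Emb (0.47). Igf1r had Sap30 (0.18), Serinc3 (0.20) and Irf2 (0.21). With 4 merged values per gene, such likeness is a description of these libraries.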

How the data were processed

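Per the labels' protocols, Trizol-extracted RNA was bound to oligo-dT beads and made into TruSeq RNA libraries. The submitters' processing notes name TopHat, Cufflinks, Bowtie and mm10, without roles or versions. The counting tool is not given in the sources used here. Per the file headers, the authors deposited FPKM for each group and, in pairwise tables, normalized reads (a signal: the count of reads per gene divided by a size factor), log2 ratios and q-values of a Fisher test. Replicates had been merged by the authors before the tables were deposited.

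Dividing a pairwise column by its smallest value gave whole reads (100% whole within 0.01 reads, 0 mismatches between tables), and 0 columns of group values were left unused. The filter was 1 FPKM in any group, which 14969 genes passed, and 99.3% of these matched a gene of the read tables. A value of 0 FPKM despite 20 or more reads occurred for 393 matched genes. Groups with 0 reads were set to 3 reads, and genes with at most 3 reads in both groups were not compared. Read ratios used median-of-ratios scaling with exact 95% intervals (Python 3.11.15, scipy 1.17.1). The code was tried on simulated Poisson counts for AFT024 against BFC012 cells only. Such counts hold no replicate variation, so they cannot show how the intervals behave between replicates or in the exosome comparisons. Per-length levels from reads used merged exons of GENCODE M21, and start regions came from RefSeq. Exon lengths, the filter of 20 reads, the other scalings of the lists and the FPKM split over the genes compared in reads were chosen after seeing the data. The 8 genes and the lists were chosen with earlier results of these data known. Named beside the 8 were at most 6 genes a list, those with the largest ratio, plus Igf2, Igf2r, Insr, Igfbp1, Igfals, Pappa and Stc2, and the 3 genes most like each gene of the 8 that reached 10 FPKM. Irs2 was named in addition, beside Irs1. Scaling, pseudocount, filter and fold were varied.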

Additional observations from a re-analysis of the deposited data

Results flagged for a closer look

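Igfbp4 and Igfbp5 were flagged because their exosome-to-cell log2 ratios had opposite signs in the 2 lines. The number of all genes with opposite signs was not counted. For Igfbp4 the log2 ratio was 0.80 in AFT024 and -2.45 in BFC012, a difference of 3.26, and both signs held under total reads scaling (0.23 and -3.05) and with FPKM plus 1 (0.23 and -4.02). For Igfbp5 it was 4.06 and -0.38, a difference of 4.44, but with FPKM plus 1 the values were 0.15 and -0.44, and relative to the median gene on that scale both were positive (1.26 and 0.36). The BFC012 read ratio of Igfbp5, 0.769 (0.566 to 1.03), had an interval that included 1, so its sign there is open. Neither difference was tested, since each group has 1 merged value.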

How the results depend on the processing

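The counts between the cells (3 higher, 2 lower of 7) were the same under total reads and upper quartile scaling and with FPKM plus 1 or plus 0.1. Other counts moved by over 1.5 times. Of 2 genes lower in AFT024 than BFC012 exosomes, 1 was left with FPKM plus 1, with a filter of 5 FPKM, at 4-fold and with a filter of 20 reads, and 0 with FPKM plus 1 relative to the median gene, where, as at 4-fold, 3 genes passed in all instead of 5. In AFT024 exosomes against cells, 2 of 7 genes were higher and 2 lower with FPKM plus 1 relative to the median gene, against 0 and 4 of 6 in reads. The higher ones were Igfbp4 and Igfbp2, which has 0 and 1 read and so supports no direction. In reads, 1 was higher (Igfbp5) with no filter or the filter of 20 reads. In BFC012 exosomes against cells, 3 genes were lower and 3 passed in all, instead of 6, with FPKM plus 1 relative to the median gene. Between the lines, the exosome-to-cell change differed by 2-fold or more for 2 of 7 genes in reads and 4 of 8 with FPKM plus 0.1, among them Igfbp7 (-5.21), which is listed at 0 FPKM in both BFC012 groups. These 7 include Igfbp5, which failed the filter, and leave out Igfbp2, which had no read ratio in AFT024. The share over all genes was not computed. Relative to the median gene with FPKM plus 1, Igfbp3 between the exosomes turned to 0.12 (-1.14 in reads) and Igfbp7 in BFC012 exosomes against cells to 0.80 (-3.53 in reads), despite 6 and 230 reads. The cause of the other moves was not tested. Over all settings, 100 counts were within 1.5 times and 14 were not; of 155 log2 ratios of the 8 genes 11 changed sign, 2 of them (above) from past 2-fold and 9 from under it (Igfbp6 in exosomes against cells of both lines, and Igfbp5 in BFC012). No paired analysis was possible because the tables hold merged replicates, and leaving out a replicate was not run for the same reason. Counts under 20 reads limit Igfbp2, Igfbp3 and Igfbp5 in AFT024 exosomes, Igfbp3 and Igfbp7 in BFC012 exosomes, and Igfbp2 and Igfbp5 in AFT024 cells.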
